A study of Mus musculus with 8 samples.

Results

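Coding genes that carried N6-methyladenosine (m6A) peaks only after doxycycline (Dox) were described in mouse embryonic stem cells (ESCs). The genes were chosen by the peak lists themselves: a protein-coding gene was taken when 1 or more peaks of the Dox list and 0 peaks of the DMSO list shared 1 or more bases with its exons on its strand. Symbols starting with Zscan4, Usp17l, Tcstv, Tdpoz, Zfp or Slc, and Duxf3, Tmem92 and Mettl14, were set aside by the same rule. Of 6214 coding genes with a peak in either list, 133 were left, and they held 193 Dox peaks. Before the exceptions the pattern was met by 149 coding genes, 2.40% of the 6214, and 16 of these were set aside. The reverse pattern, DMSO peaks and no Dox peak, was met by 1334 coding genes (21.5%), and 4731 had peaks in both lists. Because the peak lists chose the genes, their Dox peaks and their lack of DMSO peaks are a description, and no test between treatments was made.

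The cells were E14 mouse ESCs of a 2C-tdTomato line. Both groups carried a Dox-inducible Dux transgene and a tdTomato transgene under the Mervl promoter, and both were grown with LIF. One group received Dox for 24 h and the other received DMSO, the solvent, for 24 h. Immunoprecipitated (IP) and input RNA of each treatment gave 4 groups of 2 replicates, 8 libraries in all, but the deposited peaks were 1 list per treatment, so that no value below has a replicate error. Dux converts only some of the cells, the libraries were bulk RNA, and fewer cells of a type and less RNA per cell cannot be told apart in them. The 7 ESC marker genes examined (Pou5f1, Sox2, Nanog, Sall4, Dppa5a, Zfp42 and Esrrb) all carried peaks under both treatments, 23 with DMSO and 25 with Dox.

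m6A is written on mRNA during transcription, mostly at adenosines in DRACH sequences, in which D stands for A, G or T, R for A or G and H for A, C or T. GGAC is the best known core of that motif. The mark is read by YTH proteins and is tied to the decay and translation of the mRNA. A peak is a stretch of exon with more reads in IP than in input, and a transcript has to be expressed before a peak can be called on it. Dux switches on genes of the 2-cell embryo, many of which lie in families of near-identical copies. Expression was not analysed here, so that a gain of m6A and a gain of RNA cannot be told apart for any of the 133 genes.

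Sites from 3 kinds of genes are shown because they cover the range seen below: single-copy genes with several peaks, multicopy genes whose peaks hold GGAC, and multicopy genes whose peaks lack it. They were read from the GRCm38 (mm10) genome on the strand of the transcript, with GGAC or, in the last set, the DRACH match TGACA in capitals. The first set comes from Sox3, a SoxB1 transcription factor of neural progenitors, on the minus strand of chromosome X, and from Marveld1, a MARVEL domain membrane protein, on the plus strand of chromosome 19.
Sox3, coding sequence, chrX:60892992-60893020: gggcagcgaccaGGACcgcgtcaagcgac
Sox3, coding sequence, chrX:60892788-60892816: gaaggagtacccGGACtacaagtaccggc
Sox3, 3′UTR, chrX:60891944-60891972: cgaagatgaggaGGACcgaaagtttggcc
Marveld1, 3′UTR, chr19:42148452-42148480: agagctagacgtGGACaggcgccgccgcg
Marveld1, 3′UTR, chr19:42151038-42151066: tctggtcacttgGGACtgaactctgccca
Marveld1, 3′UTR, chr19:42151469-42151497: tctctgacaccaGGACtggggccaggcca

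The peaks of Spry1, an antagonist of receptor tyrosine kinase signalling on the plus strand of chromosome 3, were each 25 nt long and are given whole. All 3 lay in the coding sequence and each held 1 GGAC.
Spry1, chr3:37642693-37642717, score 10.97: ctatgacagGGACactcagcctgct
Spry1, chr3:37642768-37642792, score 10.86: cacagagGGACcttcggtagcgaga
Spry1, chr3:37642818-37642842, score 10.04: gacccgaaaagcaggaaaGGACtca

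The multicopy genes are shown by sites that their copies share. In 3 genes of the Tcstv neighbourhood the window was the same base for base, and that of B020031M17Rik, on the other strand, is printed beside them. In 3 Eif1a-like genes the window around a GGAC 300 nt upstream of the stop codon was also the same base for base.
Gm20767, chr13:120154836-120154864, plus strand: atttgagagtgtGGACtacctgagatcct
Gm21818, chr13:120173393-120173421, plus strand: atttgagagtgtGGACtacctgagatcct
AF067061, chr13:120264011-120264039, plus strand: atttgagagtgtGGACtacctgagatcct
B020031M17Rik, chr13:119949831-119949859, minus strand: atttgagagtgtGGACtacctgagatccc
Gm5039, chr12:88321333-88321361, minus strand: atgctgggatgtGGACggttggaagcaat
Gm8300, chr12:87517017-87517045, plus strand: atgctgggatgtGGACggttggaagcaat
Gm21319, chr12:87773639-87773667, minus strand: atgctgggatgtGGACggttggaagcaat
Gm8994 (Eif4a3l1 in RefSeq), chr6:136329700-136329728, plus strand: ccggattctcagGGACatcgagcagtact

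On chromosome 4, 6 PRAME-like genes carried a peak over the same stretch of coding sequence, and none of those 6 peaks held GGAC. The window around the DRACH match that all of them held, 350 nt upstream of the stop codon, had 0 mismatches between the genes and is printed for the best-scoring and for the one on the minus strand.
BC080695, chr4:143572850-143572878, plus strand: aacattgtaggaTGACAgactctcaggtc
Pramef25 (Pramel16 in RefSeq), chr4:143949106-143949134, minus strand: aacattgtaggaTGACAgactctcaggtc

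The value of a peak is called its score, and it was taken to be the −log10 p-value that the authors' caller gave for IP over input, with a floor of 10 in both lists. A score carries depth and expression with it and is not a fraction of methylated molecules. Among the 133 genes 95 had 1 Dox peak, 26 had 2, 6 had 3, 3 had 4, 1 had 5 and 2 had 6. The best score of a gene ran from 10.02 in Uhrf2 to 26.8 in BC080695 and was under 11 in 65 genes. It reached 15 in 14 genes, and 12 of these had a coding relative, that is, another coding gene matching 60% or more of the shorter coding sequence at an identity of 75% or more. The remaining 2 were C1d, a nuclear co-repressor with 1 peak of 100 nt scoring 15.3, and Snrpc, a protein of the U1 splicing particle whose 2 peaks scored 15.1 and 11.6. The Snrpc peak scoring 11.6 had a near-identical locus elsewhere in the genome (98% identity over 90% of the peak). The one scoring 15.1 had such a locus only at 95% identity over 50% of the peak, and the C1d peak had none by either measure. C1d and Snrpc are named here after their values were seen.

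**Figure D1:**
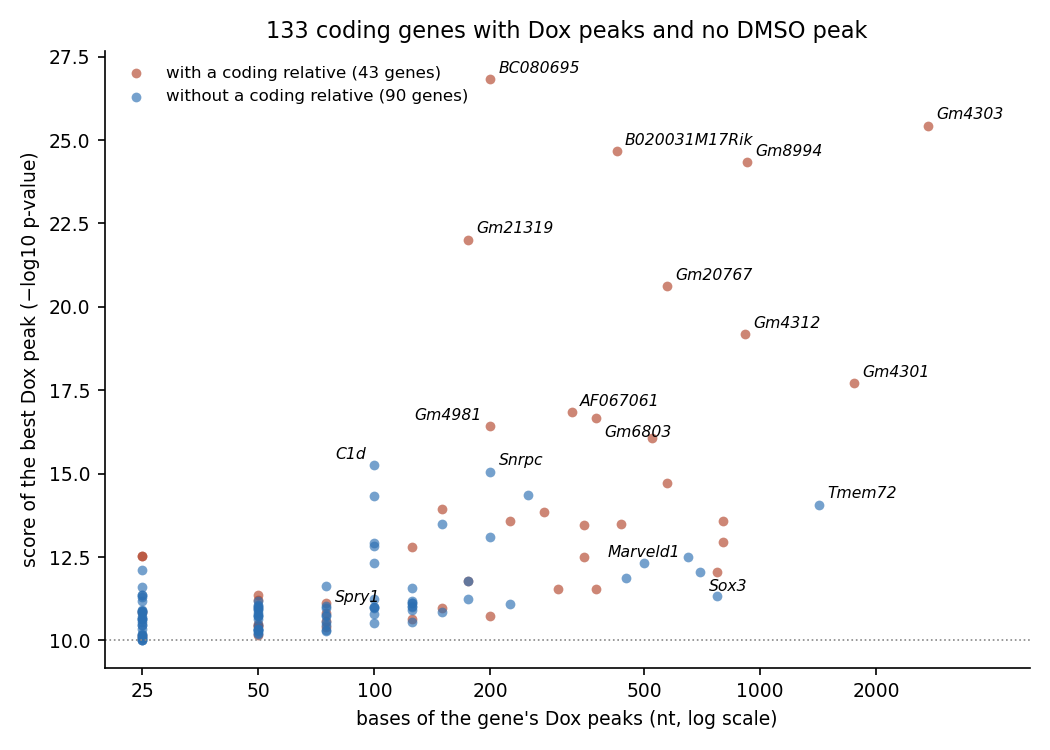
Best score (−log10 p-value) of each of the 133 genes against the summed length of its Dox peaks in nt, on a log axis, with 1 point per gene and the floor of 10 dotted. The 43 genes with a coding relative hold 12 of the 14 points at 15 or more, and the 90 genes without one lie mostly near the floor.

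Peaks differed in size between genes with and without a coding relative. The 43 genes with a coding relative held 61 peaks with a median length of 150 nt (quartiles 50 and 275 nt) and a median score of 11.8 (10.9 to 14.0). The 132 peaks of genes without a relative had a median length of 50 nt (quartiles 25 and 100 nt) and a median score of 10.9 (10.4 to 11.2). A score of 15 or more was reached by 21.3% (Wilson 95% interval 12.9 to 33.1) of the former and 1.52% (0.416 to 5.36) of the latter. Peaks are not replicates, and these intervals, like all below, cover counting error only.

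Sox3 carried 6 Dox peaks, 5 in the coding sequence and 1 in the 3′UTR. From 5′ to 3′ they were 200, 75, 50, 150, 25 and 200 nt long and scored 12.1, 10.2, 11.4, 11.9, 10.1 and 11.7. They covered 700 of the 2065 bases of its single exon, and 3 of them held GGAC. No peak of Sox3 had a near-identical locus elsewhere in the genome. Sox3 and Marveld1 had the most peaks of the 133 genes, although no peak of either scored above 12.3.

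Across the 19 Sox genes examined, Dox peaks were found on 6 and DMSO peaks on 4. Sox2, the SoxB1 factor of pluripotent cells, had 1 peak in each list, with scores of 12.8 in DMSO and 18.6 in Dox. Sox1, also SoxB1, had 1 peak in each list too, scoring 11.7 and 10.5. The SoxC genes were mixed: Sox4 had 10 DMSO and 7 Dox peaks, Sox12 had 4 and 4, and Sox11 had 0 and 1. The only Sox11 peak was 25 nt long, scored 10.9, lay in the coding sequence and held 2 GGAC. Sox3 and Sox11 were thus the Sox genes with Dox peaks only, and the other 13 Sox genes had no peak in either list.

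Marveld1 also carried 6 Dox peaks, all of them in its 3′UTR between 257 and 2082 nt past the stop codon by their middle bases. They were 150, 25, 100, 75, 50 and 100 nt long, scored 12.3, 10.05, 11.3, 10.4, 11.4 and 10.6, and covered 500 of 4304 exonic bases. None had a near-identical locus, and 3 held GGAC. Of 19 MARVEL domain genes, which encode membrane proteins of junctions and vesicles, Dox peaks were found on 4 and DMSO peaks on 5. Cmtm6 and Cmtm7 had 1 peak in each list, Myadm had 4 DMSO peaks and 1 Dox peak, and Cmtm4 and Plp2 had 2 and 1 DMSO peaks and no Dox peak. Marveld1 was the only one of the 19 with Dox peaks alone.

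Tmem72, which encodes a transmembrane protein, carried 5 Dox peaks of 150, 300, 525, 50 and 400 nt with scores of 13.1, 14.1, 11.2, 11.4 and 11.9. With 1425 bases it had the most peak sequence among the genes without a coding relative. Every one of these peaks lay far from the coding sequence, 4216 to 6591 nt past the stop codon, in a GENCODE last exon of 16467 nt. The RefSeq gene ends at base 116691539 of chromosome 6, upstream of all 5 peaks, the nearest of which began 627 nt beyond that end. All 5 consisted wholly of soft-masked (repeat) sequence and each had a near-identical locus elsewhere. The peaks are therefore assigned to Tmem72 by the GENCODE exon alone, and whether the reads came from Tmem72 mRNA was not tested. Over all coding genes such peaks were rare: 3.63% (1.77 to 7.30) of the 193 peaks and 0.381% (0.287 to 0.505) of the 12600 Dox peaks of genes with peaks in both lists were wholly soft-masked.

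The other genes with 3 or more peaks and no coding relative carried them mainly in coding sequence. Spesp1, a protein of the sperm acrosome, had 4 peaks in its coding sequence that covered 650 bases, and the longest, of 375 nt, scored 12.5 and held 2 GGAC. Fam124a had 4 peaks covering 775 bases with scores of 10.4 to 11.3, 3 of them in the coding sequence and 1 in the 3′UTR. In 0610040J01Rik 4 peaks covered 450 bases of coding sequence with scores of 10.2 to 11.9, and 3 of them held GGAC. Csrnp3, a nuclear transcriptional activator, had 3 coding peaks of 50, 25 and 25 nt that scored 10.6, 10.99 and 10.3. Sms, the spermine synthase, had 3 coding peaks scoring 13.1, 10.1 and 11.01, each with a near-identical locus elsewhere, so the copy of origin is uncertain for all of them.

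**Figure D2:**
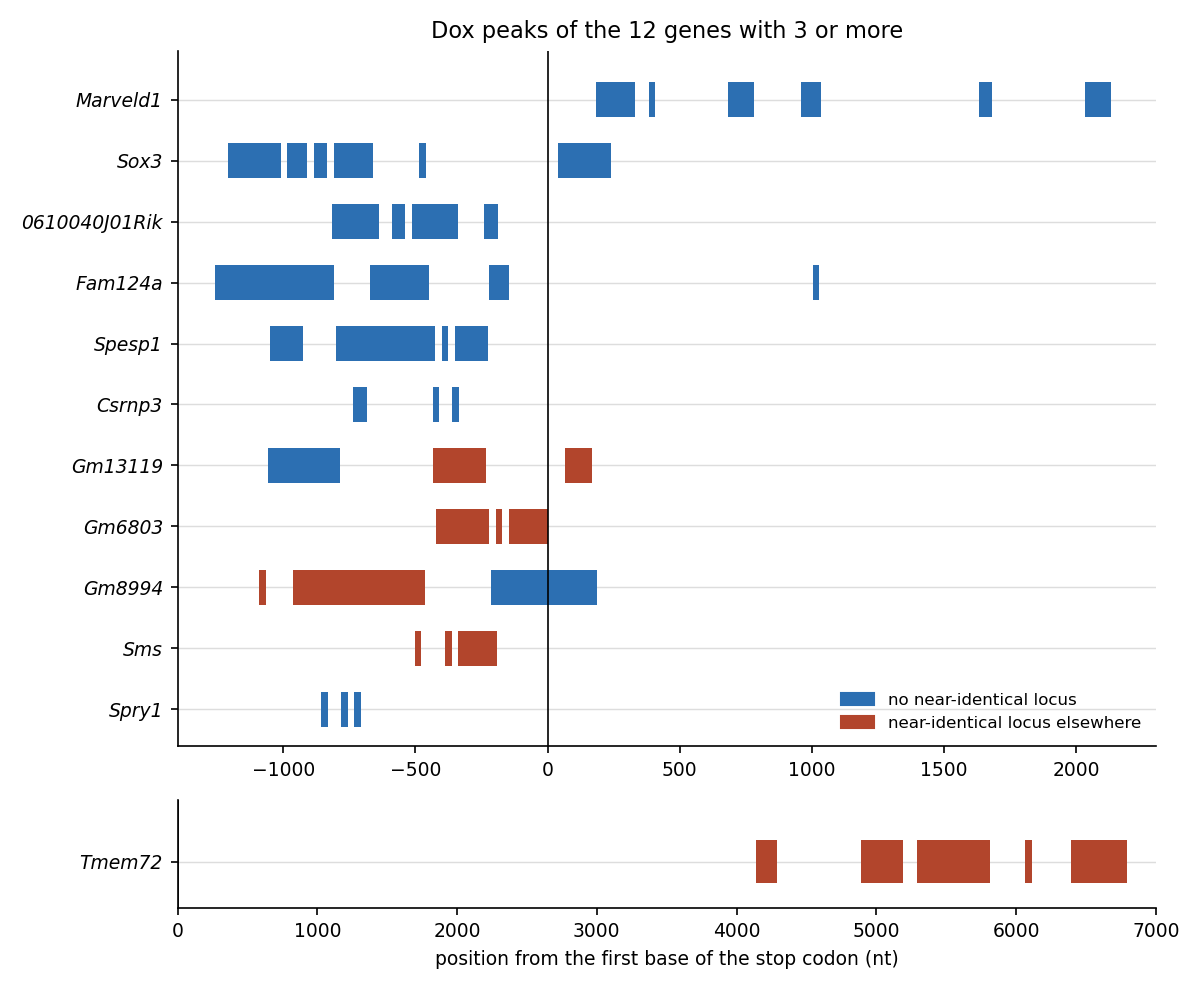
Dox peaks (bars, to scale) of the 12 genes with 3 or more, placed by their distance in nt from the first base of the stop codon (0, vertical line), with Tmem72 on its own axis and peaks with a near-identical locus elsewhere in red, others in blue. The 6 Sox3 peaks lie on both sides of the stop codon, none of them over it. The 6 Marveld1 peaks lie past it, and the 5 Tmem72 peaks lie 4216 to 6591 nt past it by their middle bases.

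Of the 86 names in a list of 2C and Dux-response genes, 75 were annotated coding genes, and 48 of these had no peak in either list. Of the 27 with a peak, 14 (51.9%) were among the 133, 12 had peaks in both lists, and Cyp2b23 alone had DMSO peaks only. Over all coding genes with a peak the share with Dox peaks only was 2.40%. The list was drawn up with results of these data known and is not independent evidence of its direction. The 14 genes were the PRAME-like Gm12794, Gm13119, Gm13078, Gm13040, Gm13057, BC080695 and Pramef25, the Tcstv neighbours Gm21818, Gm20767 and B020031M17Rik, the Eif1a-like Gm5039 and Gm8300, and Duxbl3 and Spz1. Their copies are alike enough that reads may be shared between them. With Dox peaks that had a near-identical locus left out, 8 of the 14 remained. That count depended on the strictness of the match. At 95% identity over 50% of the peak, only Gm12794 (1 of its 2 peaks) and Spz1 kept a peak without such a locus.

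PRAME-like genes encode leucine-rich repeat proteins of germ cells and early embryos. On chromosome 4, between bases 143511343 and 144364419, 8 of the 23 coding genes were among the 133, and Gm12794 (Pramel19) lay elsewhere on that chromosome. This stretch, like those named below, was drawn between the outermost of neighbouring genes of the 133, with gaps of at most 500 kb. Its share of them thus follows from how it was drawn and is not a finding. Over all coding genes with a peak, the share with Dox peaks only was 2.40%. Other PRAME-family genes had peaks in both lists. Pramef17, in the same stretch, had 1 DMSO and 2 Dox peaks, and elsewhere on chromosome 4 Pramef8 had 3 and 3 and Pramef12 had 4 and 1. Gm13128, in the stretch, had 2 DMSO and 3 Dox peaks. BC080695, Gm13040, Gm13043, Gm13057, Gm13119 (Pramel31) and Pramef25 formed one group with 95.8 to 100% identity between coding sequences. All 6 had a peak of 200 to 250 nt whose middle lay 308 to 334 nt upstream of the stop codon. Its score was 26.8 in BC080695 and 11.4 to 13.6 in the other 5, although the sequences were near-identical. The 6 peaks each held 8 or 9 DRACH matches.

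A further peak lay upstream in the coding sequence of several of these genes. In Gm13040, Gm13043 and Gm13057 it was 125 nt long in each, its middle lay 979, 982 and 983 nt before the stop codon, and it scored 11.2, 11.5 and 13.5. In Gm13119 it was 275 nt long, scored 14.7, lay 922 nt before the stop codon and held 1 GGAC. That Gm13119 peak had a near-identical locus only at 95% identity over 50% of the peak. Gm12794 had peaks of 300 and 500 nt scoring 11.4 and 13.6, with middles 949 and 249 nt before the stop codon. Gm13078 (Pramel24), of a separate group, had a peak of 75 nt at 341 nt before the stop codon that scored 10.4 and held 1 GGAC. Gm13083 (Pramel21) had 1 peak of 50 nt, at 1428 nt before the stop codon, with a score of 10.4. The positions repeated from copy to copy, but with near-identical sequences a read of one copy may be counted for another, so these are not separate observations.

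**Figure D3:**
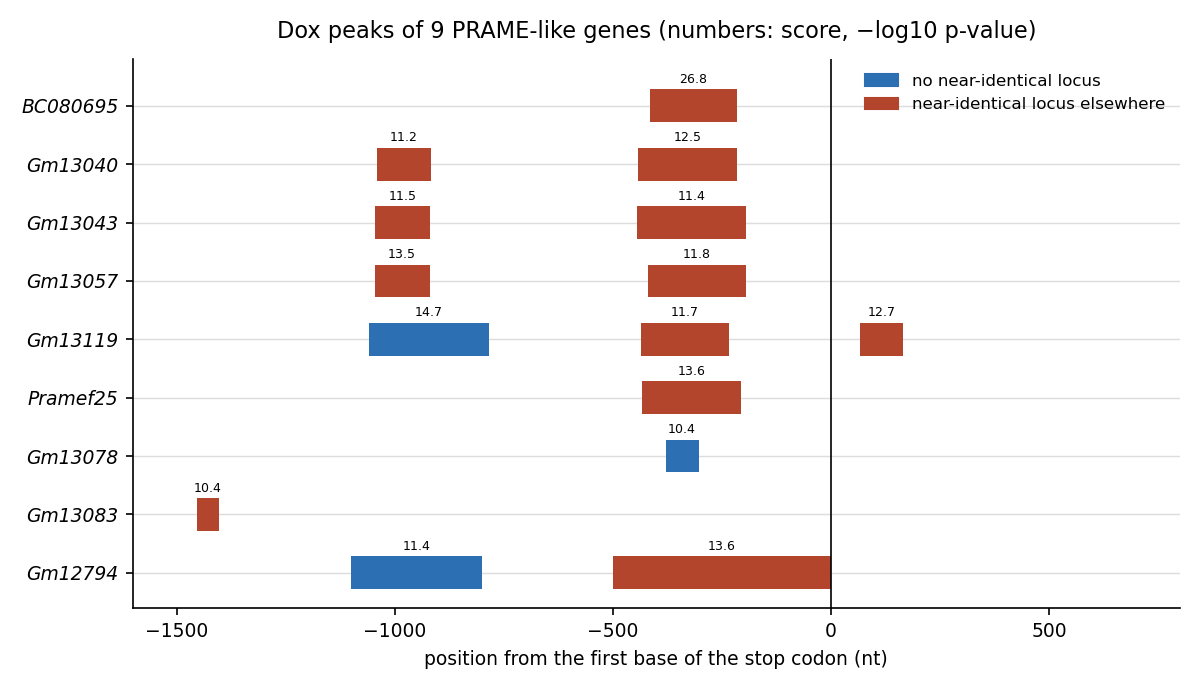
Dox peaks (bars, to scale) of 9 PRAME-like genes by distance in nt from the first base of the stop codon, with each peak's score (−log10 p-value) above it and peaks with a near-identical locus in red. The peaks of 6 genes line up 308 to 334 nt before the stop codon by their middle bases, and BC080695 has the top score there, 26.8.

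The Tcstv neighbourhood of chromosome 13, between bases 119827961 and 120308779, held 6 of the 133 genes among 13 coding genes. Its ends too were set by those genes, so that count is not a finding. Tcstv genes are named after the 2-cell stage of the embryo. B020031M17Rik had a peak of 425 nt scoring 24.7, Gm20767 a peak of 575 nt scoring 20.6, and Gm21818 a peak of 525 nt scoring 16.1. AF067061 had peaks of 125 and 200 nt scoring 16.9 and 12.7, AF067063 a peak of 150 nt scoring 14.0, and BC147527 a peak of 200 nt scoring 10.7 with no GGAC. All 7 peaks lay in the coding sequence by their middle bases. The peaks of Gm20767, Gm21818 and BC147527 had no near-identical locus at 98% identity over 90% of the peak, whereas those of the other 3 genes did. At 95% identity over 50% of the peak, every peak of the 6 genes had such a locus. Among their relatives Tcstv1 and Tcstv3, set aside by symbol, had 1 and 3 Dox peaks and no DMSO peak, and Gm21761 had 2 DMSO peaks and 1 Dox peak.

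Eif1a-like genes on chromosome 12 resemble the initiation factor gene Eif1a. Gm21319 had 1 peak, scoring 22.02, Gm6803 had peaks of 200, 25 and 150 nt scoring 16.7, 11.1 and 11.1, Gm5039 had a peak of 435 nt scoring 13.5, and Gm8300 had a spliced peak of 800 nt scoring 12.9. Every peak of Gm21319 and Gm6803 had a near-identical locus elsewhere. Those of Gm5039 and Gm8300 had one only at 95% identity over 50% of the peak. Of 14 further coding relatives, 5 had peaks in both lists and 9 had none. In BB287469 the DMSO peak covered 150 bases and the 2 Dox peaks 825, and in Gm4027 the DMSO peak covered 150 bases and the 3 Dox peaks 900. Peaks of this family were thus called on some copies in DMSO as well, and the copies given here are those without one.

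Alyref-like genes, relatives of the mRNA export adaptor gene Alyref, had more copies of this kind. Gm4301 (peaks of 625 and 1125 nt, scores 17.7 and 14.0), Gm4303 (a peak of 2725 nt, score 25.4) and Gm4312 (a peak of 914 nt, score 19.2) lie on chromosome 10 between bases 100335676 and 100382560, and every one of their peaks had a near-identical locus. 4931428L18Rik, on chromosome 1, had peaks of 75 and 700 nt scoring 12.1 and 11.6, neither of which lay in an exon of the RefSeq gene of that name. Of 13 further relatives, 10 had peaks in both lists. The Gm4301 transcript is 914 nt long, and its peak of 1125 nt ran in 2 blocks. Only the part from 188 nt before to 25 nt past the stop codon lay in Gm4301. RefSeq placed that peak in exons of Gm4301, Gm4302, Gm4303, Gm4305 and Gm4307. The Gm4303 peak ran in 3 blocks through exons of Gm4305 and Gm4307 as well, and 2 DMSO peaks overlapped it there. It was the only one of the 193 peaks that a DMSO peak overlapped.

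Fthl17d, Fthl17e and Fthl17f, genes of a ferritin heavy chain-like family on chromosome X, each had 1 coding peak, scoring 13.8, 10.98 and 12.8, with middles 145, 123 and 118 nt before the stop codon and no GGAC. Fthl17d had a second peak of 100 nt in its 5′UTR, and the relatives Fthl17b and Fthl17c each had 1 DMSO and 2 Dox peaks. Every peak of Fthl17d, Fthl17e and Fthl17f had a near-identical locus elsewhere. Gm11236, Gm11237, Gm11238 and Gm11239 were all 4 of the coding genes in their stretch of chromosome 4, which was drawn by their own ends. Their 6 peaks were short, 25 to 75 nt, with scores of 10.2 to 12.5. All 6 had a near-identical locus at 95% identity over 50% of the peak, so the copy of origin is uncertain. RefSeq placed 1 Gm11238 peak in exons of Gm11236, Gm11237, Gm11238 and Gm38423, and the other in Gm38423 only. The 6 further coding relatives of these 4 genes had no peak in either list. Gm8994 (Eif4a3l1), a relative of the exon junction helicase gene Eif4a3, had peaks of 25, 500 and 400 nt scoring 10.6, 19.2 and 24.3. The best of these reached across the stop codon and had a near-identical locus only at 95% identity over 50% of the peak. The other 2 had one at 98% identity over 90% of the peak. Eif4a3 itself had 2 DMSO peaks and 1 Dox peak. Gm4981, a relative of Duxf3 on chromosome 10, had a 3′UTR peak of 200 nt scoring 16.4 with 5 GGAC. That peak had a near-identical locus only at 95% identity over 50% of the peak. Duxbl3 had a peak of 25 nt scoring 12.5, with a near-identical locus elsewhere. Its coding sequence matched those of Duxbl1 and Duxbl2, which had no peak in either list, at 100% identity. Spz1, a transcription factor of spermatogenesis with no coding relative, had a coding peak and a 3′UTR peak scoring 11.1 and 10.4, neither with GGAC.

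**Figure D4:**
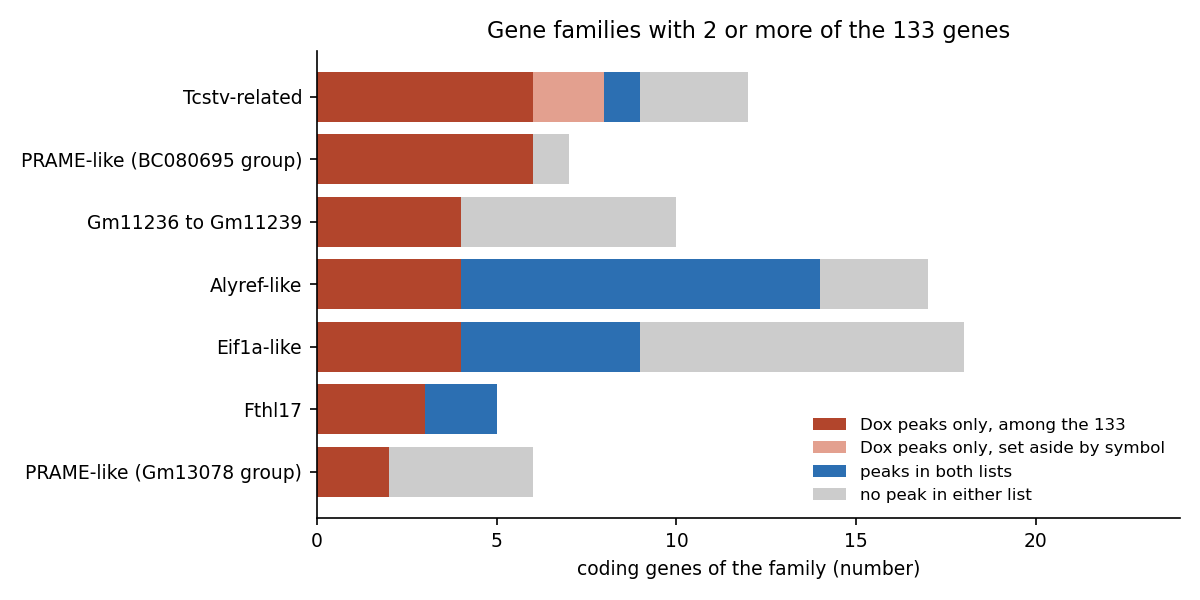
Number of coding genes in each family with 2 or more of the 133 genes, split by whether they had Dox peaks only, peaks in both lists or no peak. The Alyref-like family has 10 relatives with peaks in both lists and the Eif1a-like family 5. The 2 PRAME-like groups drawn have 0, but the bars hold close coding relatives only, and more distant PRAME genes such as Pramef8, Pramef12 and Pramef17 had peaks in both lists.

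A single short peak was all that many of the genes had. In 32 of the 133 genes it was 25 nt long, the shortest length called, and in 52 it was 50 nt or less. Of these 52, 43 were among the 90 genes without a coding relative and 9 among the 43 with one. The 5 genes just inside the rule each had 1 peak of 25 nt: Uhrf2, a ubiquitin ligase that binds modified DNA (score 10.02), Trex1, a DNA exonuclease (10.02), Mrpl32, of the large mitochondrial ribosomal subunit (10.02), AI597479 (10.06) and Fam107b (10.07). Just outside it were genes with 1 DMSO peak and several Dox peaks. Zscan4d, which the rule also sets aside by symbol, had 1 DMSO peak of 25 bases scoring 10.7 and 4 Dox peaks of 1672 bases scoring up to 37.4. Peak bases in DMSO and Dox were 200 and 250 in Anapc2, of the anaphase-promoting complex, 525 and 250 in Kif11, the spindle kinesin, and 150 and 900 in Gm4027. In all, 1139 coding genes had 1 DMSO peak and 1 or more Dox peaks, so the border of the rule runs through genes with few peaks.

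A gene joins or leaves the 133 with the threshold. At a score of at least 15 in both lists the rule was met by 227 genes, of which 14 were among the 133, and with the DMSO list reduced to its best-scoring 13001 peaks, the size of the Dox list, it was met by 441. Asking for at least 2 Dox peaks left 38 genes, and leaving out Dox peaks with a near-identical locus left 101.

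Motifs, length and position were not part of the rule and were set beside the 12600 Dox peaks of coding genes with peaks in both lists. Peaks of the 133 genes had a median length of 75 nt against 125 nt, and 32.1% (25.9 to 39.0) were 25 nt long against 16.3% (15.7 to 16.96). GGAC, searched on the strand of the peak, was present in 44.6% (37.7 to 51.6) against 56.02% (55.1 to 56.9), and DRACH, which includes every GGAC not followed by G, in 82.9% (77.0 to 87.6) against 85.4% (84.8 to 86.0). The direction of the GGAC difference changed with length. In peaks of 25 nt the share was 22.6% (14.0 to 34.4) against 15.1% (13.6 to 16.7), and in peaks of 26 to 75 nt it was 52.8% (39.7 to 65.6) against 32.9% (31.1 to 34.8). In peaks of 76 to 150 nt it was 48.6% (33.0 to 64.4) against 56.3% (54.6 to 58.1), and in longer peaks 62.8% (47.9 to 75.6) against 83.3% (82.3 to 84.3). The intervals were apart for 26 to 75 nt, where the 133 genes had the higher share, and for over 150 nt, where they had the lower. Of the 43 long peaks 29 came from genes with a coding relative, among them the PRAME-like genes whose peaks lacked GGAC. Counted per 100 nt of peak, GGAC stood at 0.684 in the 133 genes and 0.654 in the others.

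**Figure D5:**
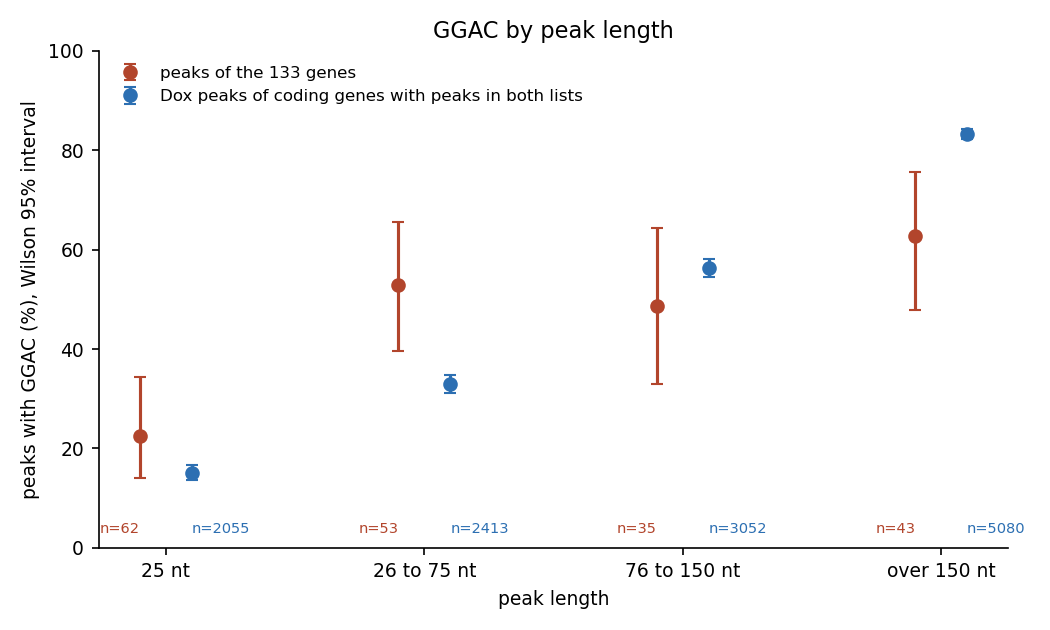
Share of peaks with GGAC (%) by peak length for the 193 peaks of the 133 genes and the 12600 Dox peaks of coding genes with peaks in both lists, with Wilson 95% intervals and n below each point. The intervals are apart at 26 to 75 nt, where the 133 genes are higher (52.8 against 32.9%), and over 150 nt, where they are lower (62.8 against 83.3%).

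Along the transcript the intervals of both sets of peaks overlapped in each region. By the middle base, which could be placed for 184 of the 193 peaks, 69.6% (62.6 to 75.8) lay in coding sequence against 71.3% (70.5 to 72.1), 27.2% (21.3 to 34.02) in the 3′UTR against 24.8% (24.1 to 25.6), and 3.26% (1.503 to 6.93) in the 5′UTR against 3.88% (3.55 to 4.24). The middle was at most 200 nt from the stop codon in 31.5% (25.2 to 38.6) against 24.97% (24.2 to 25.7), intervals that overlap. Gene structure gave intervals that were apart. Over the genes to which a peak was assigned by the larger exonic overlap, 132 here and 4632 with peaks in both lists, those with a single exon made up 13.6% (8.80 to 20.5) against 2.42% (2.01 to 2.90), among them Sox3, Sox11, Spz1 and the Fthl17 genes. The share was 23.3% (13.2 to 37.7) with a coding relative and 8.99% (4.63 to 16.7) without one. Of the peaks, 10.4% (6.81 to 15.5) were spliced against 22.1% (21.4 to 22.8). Spliced shares were not split by peak length, and the peaks of the 133 genes were shorter (median 75 against 125 nt). The same 132 genes had a median of 3216 exonic bases against 4958.5.

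A peak could belong to more than its own gene in part of the set. A near-identical locus (at least 90% of the peak at 98% identity or more) existed for 29.02% (23.1 to 35.8) of the 193 peaks against 7.25% (6.81 to 7.71) of the others, and 32 of the 133 genes had no peak without one. With a coding relative the share was 73.8% (61.6 to 83.2), and without one it was 8.33% (4.72 to 14.3). In 6 genes, Epo, Trex1, Gm4303, 0610010K14Rik, Gm49342 and Gm45208, every peak lay also in exons of another coding gene that had a DMSO peak. In Epo, Gm49342 and Gm49356 a DMSO peak lay in an intron. RefSeq placed 178 of the 193 peaks in an exon of the gene of the same name, 7 in an exon of another gene only and 8 in no exon, of which 5 were those of Tmem72. This comparison went by symbol. BC080695, Gm45208 and Gm49342 matched no RefSeq symbol, so their peaks count among the 7, that of BC080695 as Pramel20. No DMSO peak lay over the exons of any of the 133 genes on the opposite strand.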

How the data were processed

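MeRIP-seq libraries were made from fragmented poly(A) RNA with an anti-m6A antibody and a strand-marking kit. Per the labels and methods, the authors filtered reads with fastp 0.19.4, aligned them to mm10 with HISAT2 2.2.1 and called peaks with exomePeak2, whose version and settings are not given in the sources used here, nor is how the 2 replicates of a treatment were combined. The deposited lists hold 18895 DMSO and 13001 Dox peaks with exon blocks and 1 value each, read as the authors' −log10 p-value (at least 10 in every peak). Read depth was not analysed here, and a deeper library gives more peaks at a fixed threshold.

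Peaks were overlapped with GENCODE M21 exons (1 or more bases, same strand). Of the inner block edges, 99.9% lay at exon edges in each list. Positions used the transcript with the longest coding sequence. Near-identical loci and coding relatives were searched with blastn 2.17.0, the former on blocks of at least 20 nt against the chromosomes and unplaced sequences of GRCm38. Sequences, soft-masking and RefSeq exons are those of GRCm38.p6, and 129 of the 133 genes matched a RefSeq symbol. Of 86 names in the 2C and Dux-response list, 11 had no coding gene of that name. Shares have Wilson 95% intervals, computed in Python 3.11.15 with scipy 1.17.1. The gene and position steps were tested on simulated peaks and recovered 100 of 100 genes and 200 of 200 positions.

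The genes and lists were chosen with earlier results of these data known. The text names Sox3, Marveld1 and Tmem72, genes with 3 or more Dox peaks, the 10 best-scoring, those in the 2C and Dux-response, Sox and MARVEL lists, and 5 on each side of the rule's border, of which 1 outside it is not reported here. Other names were chosen after their values were seen, among them the remaining relatives in the families and the genes with overlapping loci. Alternatives covered the score, list size, overlap, strand, introns, near-identical loci, motif, window and transcript.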

Additional observations from a re-analysis of the deposited data

How the results depend on the processing

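No paired analysis was possible because the replicates of a treatment share 1 list, and for that reason no replicate could be left out. The number of coding genes with Dox peaks only was 133. It was 357 at a score of at least the DMSO median (42 of the 133 among them), 227 at a score of at least 15 (14 of them), 441 at equal list sizes and 38 with at least 2 Dox peaks. Under the other settings it was 101 to 133, the lowest with near-identical Dox peaks left out and the DMSO list kept whole, a setting chosen after seeing the data. With near-identical peaks left out of both lists it was 124, of which 101 were among the 133. The GGAC share of 44.6% was 82.9% for DRACH, 56.4% in peaks of 100 nt or more, 67.6% with 50 nt added to each side (72.2% in the other coding genes) and 46.7% without near-identical peaks. The share within 200 nt of the stop codon, 31.5%, was 16.8% at 100 nt and 53.8% at 400 nt, and other transcripts or 1 peak per gene gave 31.1% and 34.4%. The share in coding sequence stayed between 68.9% and 70.4%. The near-identical share of 29.02% was 41.5% at 95% identity over 50% of the peak. The number of 2C and Dux-response genes meeting the rule, 14, was 9 without near-identical peaks (8 of the 14, and Gm4027) and 8 when they were left out of the Dox list alone, also chosen after seeing the data. It was 15 at equal list sizes (all 14, and Pramef8). Of the 14, only Gm12794 and Spz1 kept a Dox peak without a near-identical locus at 95% identity over 50% of the peak. The cause of these shifts was not tested, apart from the stricter or looser settings themselves. Lack of a DMSO peak means no peak scoring at least 10, and depth and expression were not analysed.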

Other observations

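Genes outside the named sets, picked after their values were seen, included lineage transcription factors and mitochondrial proteins. Cebpa, a regulator of myeloid and fat cells, had 1 Dox peak of 100 nt scoring 12.3. Irx2, an Iroquois homeobox factor, had 1 peak of 125 nt scoring 10.9 with GGAC. Mecom, a zinc finger factor of blood stem cells, had 1 peak of 150 nt scoring 10.9 that lay in no RefSeq exon. Ndn, an imprinted gene of neurons, had 1 peak of 50 nt scoring 10.3. AU022751 (Ezhip in RefSeq), an inhibitor of the Polycomb methyltransferase, had 1 peak of 75 nt scoring 10.3.

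Among nuclear genes for mitochondrial proteins, Ndufa8 of complex I had 1 peak of 75 nt scoring 11.6, and Mrps36 had 1 of 25 nt scoring 11.6. Mrpl2 had 2 peaks covering 50 bases with a best score of 11.1. Ndufb9 and the overlapping Gm49356 shared 1 peak of 25 nt scoring 11.4, which counts for both genes. Tsfm, a mitochondrial elongation factor, had 1 peak of 25 nt scoring 10.2 with GGAC. No list of such genes was set up, so no count over them is given.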
